A study of Caenorhabditis elegans with 3 samples.

Results

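Binding of EGL-27 was examined at 10 genes that direct stress responses: ire-1, xbp-1, pek-1, atf-4 and atf-6 of the endoplasmic reticulum (ER) branches, atfs-1 of the mitochondrial branch, hsf-1 of the heat shock response, skn-1 and its inhibitor wdr-23, and hif-1. They were chosen by name, as 10 of the 19973 protein-coding genes of Ensembl WBcel235, with earlier results of these data known. Each gene was searched from 2000 bp upstream of its annotated 5′ end to its 3′ end, and a region was counted where its summit, the position of strongest signal, lay in that window. EGL-27 peaks that the authors kept by the irreproducible discovery rate (IDR), which asks whether peaks rank alike between replicates, lay at xbp-1, atf-6, atfs-1, skn-1, wdr-23 and hif-1. None lay in the windows of ire-1, pek-1, atf-4 and hsf-1, where the authors' longer pooled list held weaker regions. Of the peaks with a summit inside a window, that of xbp-1 was the strongest, and skn-1 was the only gene with more than 1. A stronger peak of hif-1 overlapped its window, with its summit 2 bp outside.

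The data are chromatin immunoprecipitation and sequencing (ChIP-seq) of whole Caenorhabditis elegans in the L2 larval stage. All animals were of strain OP177, which carries the allele unc-119(ed3) on chromosome III and the transgene wgIs177, from which EGL-27 is made with GFP and FLAG at its C-terminus. The 3 biological replicates form 1 group with no second condition, so no test between conditions was possible. No source used here gives the promoter of the transgene, and in whole animals the tissue in which a site was bound cannot be told apart.

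As background, EGL-27 is related to the MTA proteins of the NuRD complex, which remodels nucleosomes and deacetylates histones, and has a GATA-type zinc finger; in worms it is known for roles in cell polarity and in stress resistance. The genes studied here encode sensors, transcription factors and an inhibitor of these stress pathways. In the ER, IRE-1 splices the mRNA of XBP-1, PEK-1 phosphorylates the translation factor eIF2alpha, which raises translation of ATF-4, and ATF-6 is a membrane-bound transcription factor; ATFS-1, HSF-1, SKN-1 and HIF-1 are the transcription factors that answer to mitochondrial damage, heat, oxidants and low oxygen.

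The sequences around 6 of the 7 IDR summits are shown, since these are bound positions that the results describe; that of wdr-23 is described by its counts only. Each is the stretch of up to 100 bp on either side of the summit, without annotated UTR, in the orientation of the gene, from the RefSeq genome WBcel235 (ce11), and the summit is base 101 in each. Capitals mark matches on either strand to 7 short motifs: GATAA of GATA factors, GAGAG of GA repeats, TGACGT of XBP-1 and ATF proteins, ACGTG of HIF-1, GTCAT and ATCAT of SKN-1, and GAANNTTC of HSF-1. Matches may overlap each other. The motifs were chosen with earlier results of these data known, so their shares are descriptions only.
xbp-1, chrIII:4193691-4193808, plus strand: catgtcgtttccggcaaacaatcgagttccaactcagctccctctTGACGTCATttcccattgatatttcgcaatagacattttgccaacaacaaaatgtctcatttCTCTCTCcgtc
atf-6, chrX:12480587-12480787, plus strand: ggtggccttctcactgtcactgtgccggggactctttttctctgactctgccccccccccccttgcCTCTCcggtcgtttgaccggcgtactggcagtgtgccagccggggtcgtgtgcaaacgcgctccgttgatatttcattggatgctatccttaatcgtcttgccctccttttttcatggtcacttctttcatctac
atfs-1, chrV:14193512-14193662, plus strand: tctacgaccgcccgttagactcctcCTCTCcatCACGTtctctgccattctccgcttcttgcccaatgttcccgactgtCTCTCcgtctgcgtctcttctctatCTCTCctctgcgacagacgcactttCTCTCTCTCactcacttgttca
skn-1, stronger summit, chrIV:5657164-5657364, minus strand: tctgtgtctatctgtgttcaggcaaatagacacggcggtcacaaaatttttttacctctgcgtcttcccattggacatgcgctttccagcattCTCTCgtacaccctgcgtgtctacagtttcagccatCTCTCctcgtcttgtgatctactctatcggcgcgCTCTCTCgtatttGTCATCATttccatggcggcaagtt
skn-1, weaker summit, chrIV:5655934-5656134, minus strand: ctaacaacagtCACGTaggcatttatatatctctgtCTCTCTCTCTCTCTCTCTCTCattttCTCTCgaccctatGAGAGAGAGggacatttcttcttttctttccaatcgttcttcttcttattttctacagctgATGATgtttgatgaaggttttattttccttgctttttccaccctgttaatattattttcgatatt
hif-1, chrV:20782319-20782471, plus strand: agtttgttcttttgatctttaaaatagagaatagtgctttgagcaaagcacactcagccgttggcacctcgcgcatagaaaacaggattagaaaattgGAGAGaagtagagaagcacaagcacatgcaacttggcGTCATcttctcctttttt

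These stretches differ in their letters. The xbp-1 stretch holds the palindrome TGACGTCA, the full cyclic AMP response element, which begins at -55 bp from the summit and by its symmetry gives 2 matches to TGACGT. The weaker skn-1 summit stands beside a long CT run, and its window holds 13 overlapping matches to GAGAG, a number reached by 40 of the 1997 IDR windows (2.00%), where the median is 1. The atfs-1 stretch holds 6 matches to GAGAG, and the stronger skn-1 stretch holds, near its end, the SKN-1 core GTCAT running into ATCAT. The atf-6 stretch has a run of C and 1 match, to GAGAG. The wdr-23 window, not printed, holds 3 matches to ATCAT, the most of the 7, with 1 match to GTCAT, 1 to GATAA and 1 to GAGAG.

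Across windows of 201 bp centred on all 7 summits, GAGAG was present in 7, against 66.0% of all 1997 IDR windows and 29.7% of the 19973 windows of the same length just upstream of coding 5′ ends. TGACGT was present in 1, the xbp-1 window, against 10.5% of IDR windows and 6.93% of upstream windows. Its longer form TGACGTCA, which was searched after the xbp-1 sequence had been seen, was in 2.10% of IDR windows and 0.941% of upstream windows. GTCAT was in 4 member windows (29.0% of IDR windows, 26.1% of upstream windows), ATCAT in 3 (34.7% and 40.0%), ACGTG in 3 (26.5% and 20.5%) and GATAA in 2 (35.1% and 45.7%). Only GAANNTTC had no match in the 7 windows, against 6.71% of IDR windows and 12.7% of upstream windows. The summit inside hif-1 had no ACGTG in its window, and the 3 windows with it were those of xbp-1, atfs-1 and the weaker skn-1 summit. The G+C content of the 7 windows ran from 35.8% at the weaker skn-1 summit to 55.7% at atf-6, with a median of 44.3% over all IDR windows. A match describes letters only and does not show which protein binds there.

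The authors' IDR set held 1997 regions and their pooled list of peaks and background 30000, in which the IDR set made up the 1997 regions of highest signal. The signal is the authors' own value per region, with no scale named, so it is compared here only within a list, by its rank. IDR signals ran from 34.8 to 378 with a median of 50.8, and all pooled signals had a median of 10.7. Replicate 1 had 13245 regions, and replicates 2 and 3 had 30000 each. The same rank is therefore a larger percentage of list length in replicate 1, and the means and SDs of that percentage carry this difference. A region was counted as present in a replicate where at least 1 bp overlapped a region of that replicate's list, and 1 replicate region can overlap 2 neighbouring pooled regions. Read depth is unknown, so no counting interval can be given, and a gene without a region is one where none was listed at this unknown depth. Annotated 5′ ends of worm genes can lie downstream of where transcription starts, because many worm transcripts are trans-spliced.

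Of the 10 regulator genes 6 had an IDR summit in the window (60%), against 1973 of all 19973 protein-coding genes (9.88%). The 10 were chosen with earlier results of these data known, so this contrast is a description only. The windows of the regulators were long, with a median of 6783 bp (range 3550 to 14668) against 4027 bp over all coding genes. Among the 12135 coding genes with windows in that range, 1325 had an IDR summit (10.9%). Summits of the IDR set fell at 0.0888 per kb of window in the regulators, against 0.0216 per kb over all coding genes. Restricted to the promoter, from 1000 bp upstream to 200 bp downstream of the gene's 5′ end, the count was 4 of 10, against 6.04% of coding genes. Counting the promoters of all annotated transcripts it was 6 of 10, against 6.63%. Every one of the 10 genes had a pooled summit in its window, but so had 66.1% of all coding genes. In all, 7 IDR peaks and 48 pooled regions, the 7 included, had their summit in a window.

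**Figure D1:**
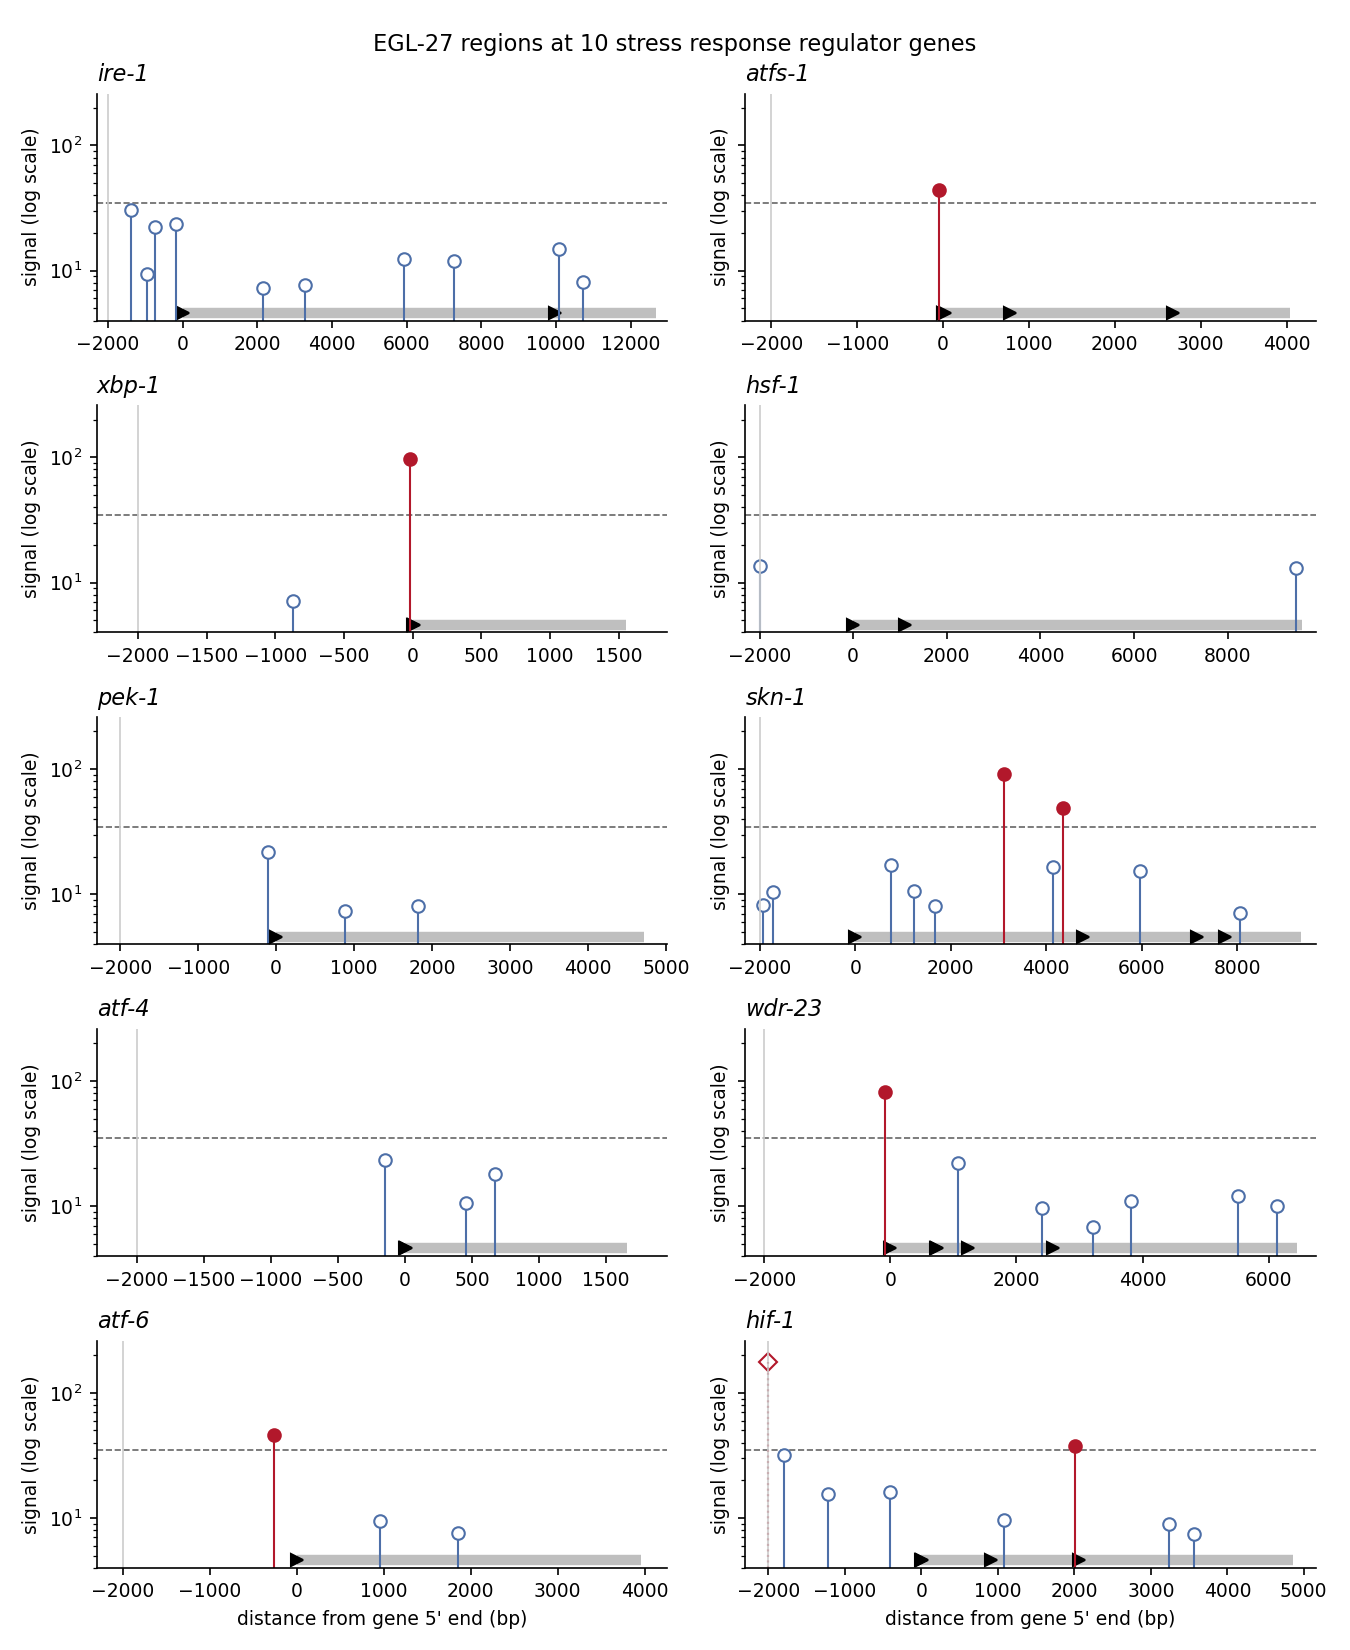
Regions with a summit near each regulator gene, by distance of the summit from the gene's 5′ end in bp (grey vertical line, the limit of the window, 2000 bp upstream; grey bar, the gene; black triangles, 5′ ends of annotated transcripts) and the authors' signal on a log scale. Filled red points are IDR peaks, open blue points are regions of the pooled list only, the open diamond at hif-1 is an IDR peak whose summit lies just outside the window, and the dashed line is the lowest signal of the IDR set (34.8); the 4 genes ire-1, pek-1, atf-4 and hsf-1 have no filled point.

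The gene xbp-1 encodes the transcription factor of the IRE-1 branch and lies at chrIII:4193809-4195358 on the plus strand. Its IDR peak, chrIII:4193739-4193847, was narrow, with the summit at -18 bp, and had a signal of 96.6, rank 260 of 1997. The overlapping regions had signals of 12.2, 48.1 and 35.9 in the lists of replicates 1, 2 and 3, at ranks 194, 170 and 576. All 3 replicates thus placed it near the top of their lists, at a mean rank of 1.32% ± 0.689 of list length (SD, n = 3). The palindrome shown above spans the 5′ edge of this narrow region. The other pooled region of xbp-1, at -873 bp within the neighbouring gene dnj-16, had a signal of 7.16 and was present in replicate 3 only.

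The gene ire-1, which encodes the ER sensor kinase and RNase that splices the xbp-1 mRNA, lies at chrII:8112243-8124910 on the minus strand and had no IDR peak among its 10 pooled regions. The strongest, chrII:8126119-8126468 with its summit at -1384 bp, had a signal of 30.3 at rank 2527 of the pooled list, below the lowest IDR signal of 34.8. It was present in all 3 replicates, with signals of 9.27, 13.4 and 10.003 at ranks 425, 2602 and 6081. Nearer to the gene, regions at -943, -741 and -174 bp had signals of 9.33, 22.4 and 23.6 and were present in replicates 2 and 3 but not in replicate 1. The upstream side of ire-1 thus held 4 regions under the IDR threshold, of which those at -943 and -741 bp overlap the same replicate regions. Inside the gene, regions at 2148, 3280, 5916 and 7265 bp lay in introns where the gene unc-105 is also annotated, with signals of 7.28, 7.72, 12.4 and 11.95, each in 1 replicate. A region at 10074 bp, 109 bp downstream of the 5′ end of the short transcript ire-1b, had a signal of 14.98 and was present in replicate 3, and one in a coding exon at 10727 bp had 8.09 and was present in replicate 1. The nearest IDR summit upstream lay at -3652 bp, with a signal of 39.6, nearest to the 5′ end of ulp-4.

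PEK-1 is the ER kinase that phosphorylates eIF2alpha, and its gene lies at chrX:11410176-11414887 on the minus strand. The strongest of its 3 pooled regions, chrX:11414810-11415159 with its summit at -98 bp, had a signal of 21.7 at rank 4395. It was present in replicates 2 and 3, with signals of 9.16 and 12.63 at ranks 5091 and 3997, and was not in replicate 1. The promoter of pek-1 thus held a region in 2 of 3 replicates that did not reach the IDR set. Regions in coding exons at 878 and 1821 bp had signals of 7.39 and 8.08, each in 1 replicate. No IDR summit was nearer upstream than -50.5 kb, beside lin-14.

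The gene atf-4, whose protein is the transcription factor translated when eIF2alpha is phosphorylated, lies at chrX:14809156-14810810 on the minus strand and had a similar record. Its promoter region, chrX:14810782-14811131 with a summit at -147 bp, had a signal of 23.5 at rank 3840. It was present in replicates 2 and 3, with signals of 10.9 and 7.92 at ranks 3744 and 9263, and not in replicate 1. Within the gene, regions at 459 bp (coding exon) and 674 bp (intron) had signals of 10.6 and 18.1 and overlapped the same regions of replicates 2 and 3; the protein-coding 5′ end nearest to both was that of WBGene00303075, which has no symbol. An IDR summit with a signal of 62.4 lay beyond the window, at -2741 bp inside the gene T04C10.3.

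ATF-6 is the membrane-bound transcription factor of the ER whose cytosolic part is released by cleavage, and its gene lies at chrX:12480948-12484904 on the plus strand. Its IDR peak, chrX:12480512-12480861 with the summit at -261 bp, had a signal of 46.2, rank 1189 of 1997. In replicates 1, 2 and 3 the overlapping regions had signals of 11.2, 26.1 and 16.8, at ranks 256, 749 and 2393, with a mean of 4.14% ± 3.34 of list length (SD, n = 3). Of the ER genes, xbp-1 and atf-6 therefore had an IDR peak in the promoter, while ire-1, pek-1 and atf-4 had pooled regions only. The other regions of atf-6, in coding exons at 961 and 1854 bp, had signals of 9.52 and 7.61; the first was in no replicate's list and the second in that of replicate 2.

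The gene atfs-1, whose protein is imported into healthy mitochondria and goes to the nucleus when that import fails, lies at chrV:14193663-14197700 on the plus strand. A single region was listed in its window, the IDR peak chrV:14193437-14193786, with the summit at -51 bp and a signal of 44.0, rank 1297 of 1997. The overlapping regions had signals of 5.09, 11.5 and 24.3 in replicates 1, 2 and 3, at ranks 2644, 3398 and 1232. These are lower in the lists than those of xbp-1, with a mean of 11.8% ± 7.94 of list length (SD, n = 3), and the summit in replicate 1 stood 282 bp from the pooled one.

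The gene hsf-1, for the heat shock transcription factor, lies at chrI:11953507-11963085 on the minus strand, and of the 10 genes its strongest pooled region was the weakest. One of its 2 pooled regions, at -1994 bp and so just inside the window, had a signal of 13.5 at rank 9901, with 11.4 and 3.42 in replicates 2 and 3, where it ranked 3441 and 29965. The other, in a UTR at 9464 bp, had a signal of 12.95 and was present in replicate 3 at rank 27046. Neither lay in the hsf-1 promoter, and the nearest IDR summits were at -76.9 kb and, on the other side, 28.8 kb downstream of the gene's 5′ end.

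The gene skn-1, for the Nrf-like transcription factor of oxidative and proteasome stress, lies at chrIV:5651039-5660384 on the minus strand and had 2 IDR peaks in its window. Of all coding genes 0.956% had 2 or more. The skn-1 window was long, at 11346 bp against a median of 4027 bp, and the share among genes of like window length was not computed. Both of the skn-1 peaks were intronic, 3120 and 4350 bp downstream of the gene's 5′ end. The first, chrIV:5657189-5657336, had a signal of 90.9, rank 309 of 1997. Its overlapping regions had signals of 13.3, 47.8 and 36.9 in replicates 1, 2 and 3, at ranks 155, 175 and 537, a mean of 1.18% ± 0.603 of list length (SD, n = 3). It stood as high in the replicate lists as the xbp-1 peak.

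The second skn-1 peak, chrIV:5655859-5656208, had a signal of 48.6, rank 1093 of 1997. Its regions had signals of 3.51, 15.4 and 30.4 in replicates 1, 2 and 3, at ranks 5685, 2065 and 814. The replicates placed it unevenly, at a mean of 17.5% ± 22.1 of list length (SD, n = 3), and the summit in replicate 1 stood at -261 bp from the pooled one, nearer to a pooled region at 4134 bp (signal 16.484) that overlaps the same 3 replicate regions. Measured from the 5′ end of the transcript skn-1c, whose protein is the isoform known from the oxidative stress response of the intestine, these peaks lay at -1659 and -429 bp. The nearest 5′ end of a protein-coding gene to the second summit, by the genes' own 5′ ends, was that of clec-178, which lies within skn-1 and starts 2085 bp from it. Neither was within 1000 bp downstream or upstream of the 5′ end of skn-1a, the long transcript. The remaining 7 pooled regions of skn-1 had signals from 7.05 to 17.0, under those of both IDR peaks. Those at 739, 1233 and 1679 bp, in introns, had signals of 17.0, 10.7 and 8.03 and were each in 2 replicates, and those at 5962 bp, where clec-178 is also annotated, and at 8064 bp had 15.3 and 7.05, again each in 2 replicates. Those at -1929 and -1730 bp, inside bec-1, had 8.22 and 10.5 and overlapped 1 region of replicate 3.

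WDR-23 marks SKN-1 for degradation through a CUL-4 ubiquitin ligase, and its gene lies at chrI:7595776-7602221 on the plus strand. Its IDR peak, chrI:7595519-7595868 with the summit at -82 bp, had a signal of 81.9, rank 382 of 1997. The regions had signals of 5.09, 31.0 and 37.8 in replicates 1, 2 and 3, at ranks 2642, 514 and 507. Replicates 2 and 3 thus placed it alike and replicate 1 lower, with a mean of 7.78% ± 10.5 of list length (SD, n = 3). A region at 1079 bp, which is -159 bp from the 5′ end of the transcript wdr-23b, had a signal of 22.3 and was present in all 3 replicates, with 2.45, 14.1 and 3.52 at ranks 10115, 2409 and 29157. The other 5 regions, from 2399 to 6133 bp, had signals from 6.85 to 11.95 and were each in 1 replicate; aex-1 had the nearest 5′ end to the last 3 of them.

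HIF-1, the hypoxia-inducible factor, is encoded at chrV:20780407-20785260 on the plus strand. Its IDR peak inside the window, chrV:20782244-20782593, was intronic, 2012 bp downstream of the gene's 5′ end and at -53 bp from that of the transcript hif-1c. It had a signal of 37.7, rank 1726 of 1997, with signals of 20.9 and 11.3 in replicates 2 and 3, at ranks 1175 and 4809. It was the only one of the 7 peaks that was absent from a replicate, the shorter list of replicate 1.

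A stronger IDR peak of hif-1 missed the window by 2 bp. At chrV:20778290-20778524, with its summit at -2002 bp, it had a signal of 177, rank 44 of 1997, and was present in replicates 1, 2 and 3 with signals of 12.1, 68.0 and 94.3 at ranks 198, 63 and 38. In replicate 1 the regions of xbp-1 and of the stronger skn-1 peak ranked higher, at 194 and 155. By rank in the IDR set, the hif-1 peak stood above all 7 peaks inside the windows. No other protein-coding 5′ end was nearer to it than that of hif-1. The pooled region at -1803 bp, with a signal of 32.1 at rank 2272, overlaps the same replicate regions, whose summits lay about 200 bp further upstream, so its presence in 3 replicates is not separate from that peak. The other hif-1 regions, at -1222, -410, 1074, 3240 and 3561 bp, had signals of 15.6, 16.202, 9.62, 8.93 and 7.40. The first 3 of these were in 2 replicates each and the last 2 in all 3, where they shared the regions of replicates 1 and 2 at ranks 6543 and 23298.

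**Figure D2:**
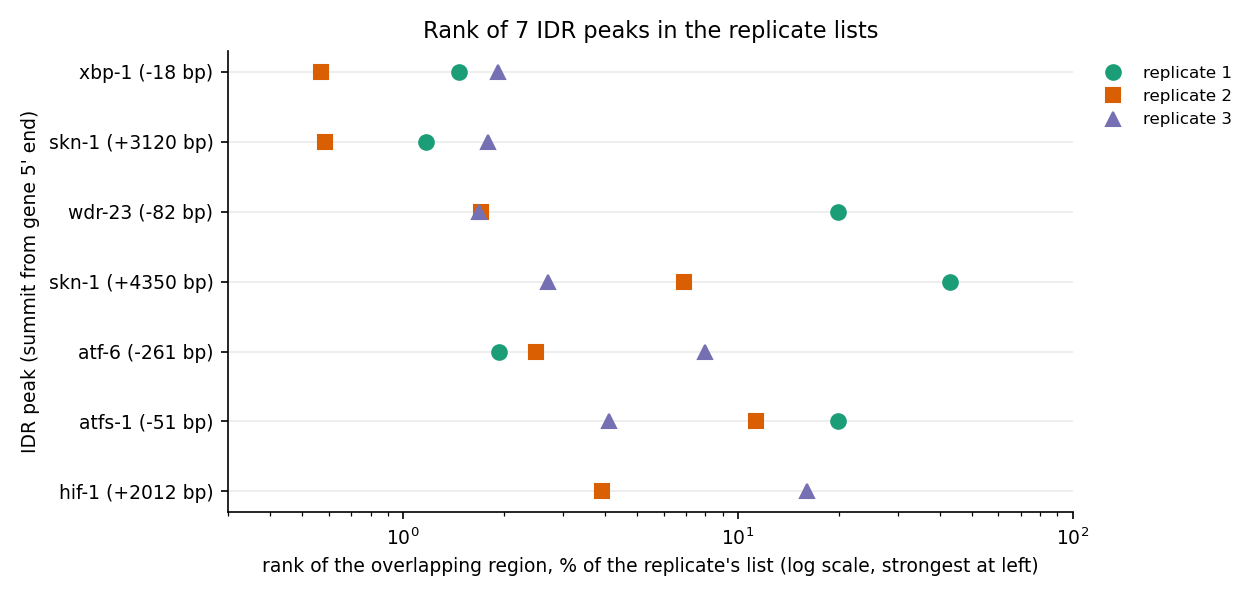
Rank of the region that overlaps each of the 7 IDR peaks, as a percentage of the replicate's own list (log scale, strongest at the left), with 1 marker per replicate and the peaks ordered by signal from the top. The xbp-1 and stronger skn-1 peaks stay within the first 2% of every list, while the weaker skn-1 peak runs from 2.71% in replicate 3 to 42.9% in replicate 1, and hif-1 has no marker for replicate 1. The same rank is a larger percentage in replicate 1, whose list is shorter.

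Of the 7 IDR peaks 6 were present in every replicate, against 59.7% of all IDR peaks. At atfs-1 and the weaker skn-1 peak the replicate 1 summits stood at 282 and -261 bp from the pooled ones, outside the peak. With replicate summits within 100 bp, 4 of the 7 were present in every replicate, a share not computed for all IDR peaks. Replicate 1 listed 6 of the 7, and replicates 2 and 3 listed 7 each. Over the whole IDR set, replicate 1 listed 60.1% of the peaks, replicate 2 99.5% and replicate 3 99.6%, so presence in all 3 was mostly presence in replicate 1. Only the xbp-1 and stronger skn-1 peaks were among the 1997 strongest regions of every replicate. The share of all IDR peaks for which this holds was not computed.

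**Figure D3:**
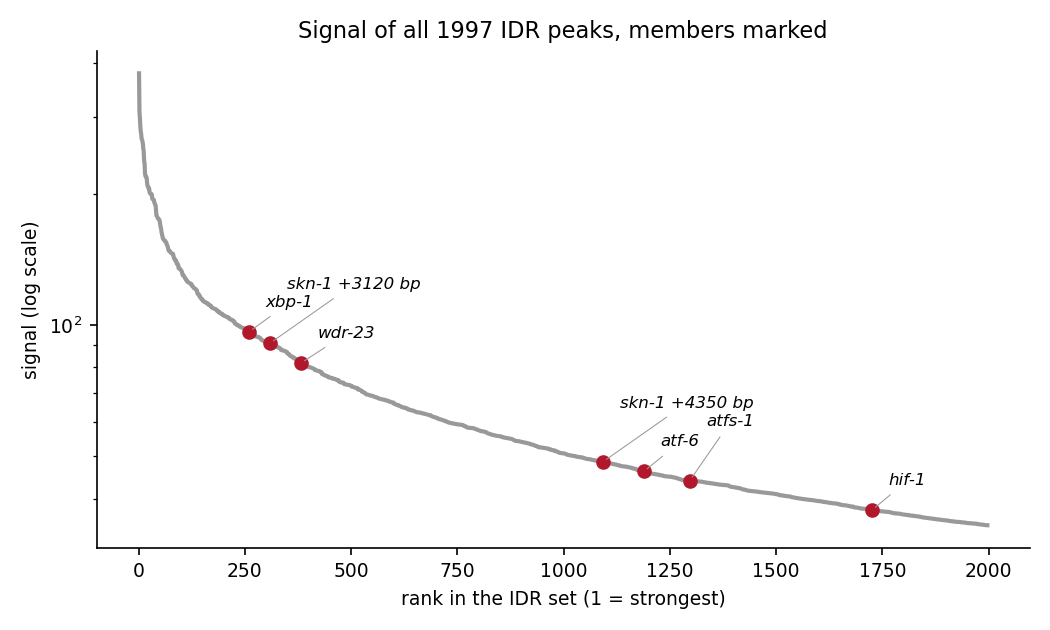
Signal (log scale) against rank for all 1997 IDR peaks (grey line), with the 7 peaks of the regulator genes as red points. The peaks of xbp-1, skn-1 (3120 bp) and wdr-23 lie above the median of 50.8 and the other 4 below it.

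The 7 peaks were spread over the range of the IDR set, with a median signal of 48.6 and 3 of them above the median of the set. By position, a split not computed for the whole IDR set, 4 were upstream of the gene, at -18, -51, -82 and -261 bp, and 3 were in introns of skn-1 and hif-1. Of these 3, those at 4350 bp of skn-1 and 2012 bp of hif-1 had the 5′ end of a shorter transcript of the same gene at most 500 bp downstream. Over all coding genes, this held for 73 of 460 IDR summits that lay over 1000 bp inside a gene (15.9%). The 460 were not limited to genes with several annotated 5′ ends, whereas skn-1 and hif-1 have 4 distinct ones each, so the shares are not like for like. The limit of 500 bp was set after the distances at these genes had been seen.

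Outside the IDR set, the windows held 41 pooled regions, with signals from 6.85 to 32.1 and a median of 10.7. Of these 7 had a signal over 20, at ire-1 (3), pek-1, atf-4, wdr-23 and hif-1, against 10.9% of all pooled regions outside the IDR set. The summits of the 41 were in introns in 15 cases, upstream in 13, in coding exons in 11 and in UTRs in 2, a split not computed for the whole pooled list. In the replicate lists, 6 of the 41 were present in 3 replicates, 16 in 2, 18 in 1 and 1 in none. Outside the IDR set, 7.19% of all pooled regions were present in every replicate, and the shares for fewer replicates were not computed. Of the 6, those at -1803 bp of hif-1 and 4134 bp of skn-1 overlap the same replicate regions as a stronger IDR peak. Those at 3240 and 3561 bp of hif-1 share their regions of replicates 1 and 2. Replicate 1 listed 14 of the 41, against 19.5% of all pooled regions outside the IDR set. Replicates 2 and 3 listed 27 each, against 57.8% and 61.4%. The density of pooled summits was 0.609 per kb of window in the regulators, against 0.304 per kb over all coding genes.

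Genes that act with these regulators were described from 6 lists of 99 genes, none of them among the 10 regulators and all chosen with earlier results of these data known. Of these 28 had an IDR summit in the window (28.3%), against 9.88% of coding genes. For the list genes it was not examined whether the 5′ end of another gene was nearer to the summit. The ER unfolded protein response, in which XBP-1, ATF-6 and PEK-1 act, had 8 of 18 genes with an IDR summit. The summit was in the promoter for 7 of these genes, for 1 of the eIF2 and GCN list, 3 of the mitochondrial, 5 of the heat shock, 3 of the hypoxia and 0 of the SKN-1 list, against 6.04% of coding genes. The strongest of the ER list were hsp-3, an ER Hsp70 (signal 98.8, -49 bp), pdi-3, a protein disulfide isomerase (93.2, -645 bp), and enpl-1, the ER Hsp90 (84.2, -64 bp). Of the eIF2 and GCN translational genes 1 of 4 had one, gcn-1, an activator of the kinase GCN-2, with its stronger summit at 20152 bp and a signal of 53.6.

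The mitochondrial list, which holds chaperones and chromatin factors of the ATFS-1 response, had 5 of 17 genes with an IDR summit. These were led by the chaperonin hsp-60 (signal 111, -593 bp), the histone demethylase jmjd-1.2 (76.7, -494 bp) and the import channel gene timm-23 (52.3, -220 bp). The heat shock list had 7 of 21, although hsf-1 itself had none, led by hsp-1, a cytosolic Hsp70 (144, -396 bp), hsp-90 (138, 845 bp) and hsp-110 (106, -258 bp). The hypoxia list had 6 of 14, led by egl-9, the prolyl hydroxylase that marks HIF-1 for degradation (151, -1754 bp), nhr-57, a HIF-1 target (57.2, -258 bp), and elb-1, an elongin B (43.5, -224 bp). The SKN-1 list of detoxification and antioxidant enzymes and upstream kinases had 1 of 25 (4%, against 9.88% of coding genes), sek-1, a MAP kinase kinase upstream of SKN-1 (35.3, -1780 bp).

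**Figure D4:**
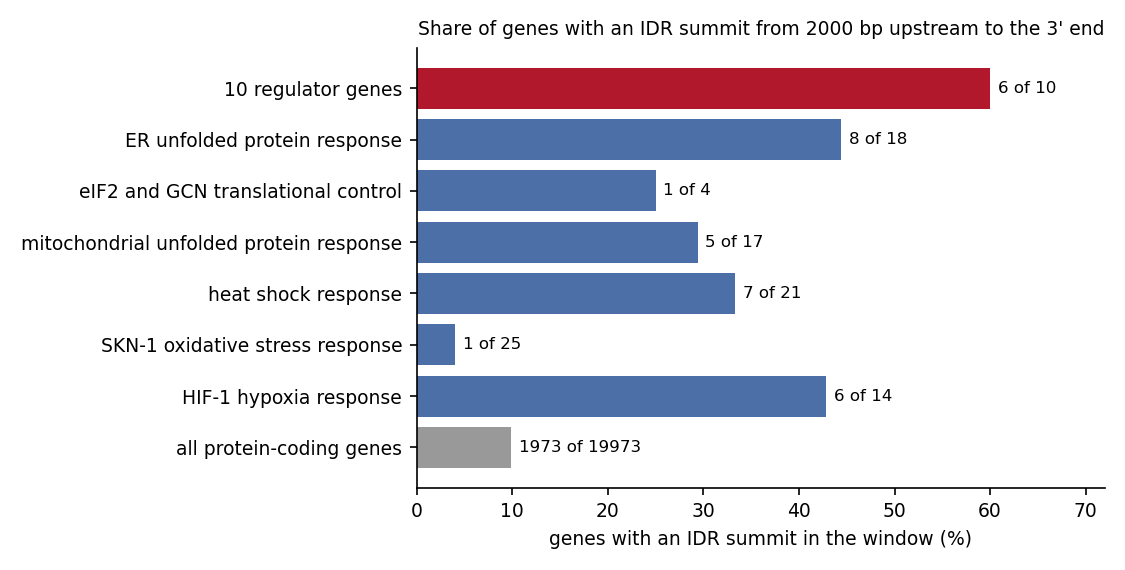
Share of genes (%) with an IDR summit from 2000 bp upstream of the 5′ end to the 3′ end, for the 10 regulator genes (red), the 6 lists of genes that act with them (blue) and all protein-coding genes (grey), with the counts beside the bars. The regulators have 6 of 10, the lists range from 1 of 25 for SKN-1 to 8 of 18 for the ER list, and all coding genes have 1973 of 19973.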

How the data were processed

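Immunoprecipitated DNA from L2 larvae was sequenced in 3 biological replicates of 1 group, per the labels. Per the notes deposited with the libraries, the authors listed peaks and background in each replicate and in the pooled replicates, and kept an IDR set. For the aligner, the caller, the IDR threshold and the control: not given in the sources used here. Lists on ce10 were not used. Each region has a signal value and a −log10 q-value, both deposited by the authors; the q-value was not used, since it is at its highest value in the whole IDR set. Depth is unknown.

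Genes came from Ensembl release 115 and letters from the RefSeq genome (WBcel235, the ce11 build). Windows, overlaps (at least 1 bp) and motif matches were computed with Python 3.11.15, pandas 2.3.3 and numpy 2.4.6, tested on simulated data, and plotted with matplotlib 3.10.9. No statistical test was made. Counts stand beside the same count over all coding genes, IDR peaks or pooled regions where that was computed.

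The members, lists and motifs were chosen with earlier results of these data known. Named are all 10 members, the 3 genes of each list with the strongest IDR peak, and genes whose 5′ end was nearest to a summit. Of 100 list names, 97 matched by symbol or RefSeq synonym, and 2 hsp-16 symbols stand for 2 genes each. The search for TGACGTCA, the limit of 500 bp for internal 5′ ends, the signal of 20 used to count stronger regions, the comparison over genes of like window length, the windows upstream of coding genes, the printing of bases beyond a region's edge and the IDR peaks outside the windows were chosen after values were seen.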

Additional observations from a re-analysis of the deposited data

How the results depend on the processing

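The 6 genes with an IDR peak stayed at 6 with windows of 500 or 1000 bp upstream (coding genes, 6.65% and 7.89%) and with any overlap in place of the summit. Leaving out summits outside a member gene and nearer to another gene's 5′ end removed none and so tests nothing. With the stronger 50% of the IDR set they fell to 3 (xbp-1, skn-1 and wdr-23; coding genes, 5.25%), the IDR peaks fell to 3 and the genes with a promoter summit to 2. The stronger 50% of the pooled list left 27 of the 48 pooled regions. Keeping regions present in both other replicates when 1 was left out gave 5 to 6 genes (coding genes, 9.78%, 6.09% and 6.11% without replicates 1, 2 and 3), 6 to 7 IDR peaks and 4 promoter genes, but 13 to 25 pooled regions, with 25 without replicate 1, 13 without replicate 2 and 15 without replicate 3. The hif-1 peak was lost without replicate 2 or 3, since it is absent from replicate 1, and any overlap gave hif-1 2 peaks. Peaks present in every replicate were 6, or 4 with an overlap of 50% or summits within 100 bp, and 2 among the 1997 strongest regions of each list. The shares of all IDR peaks under these stricter rules were not computed. For coding genes, the share with any overlap and the promoter shares under the changed settings were not computed either. IDR was not recomputed here, and replicate 1 has the shortest list. Read depth is unknown and the control was not analysed here, so a missing region is not shown to be unbound.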
